A study of Mus musculus with 2 samples.

Results

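The genes described here are 10 mouse genes of platelet receptors and of the platelet cytoskeleton, out of the 21853 protein-coding genes of the GENCODE M21 annotation on the 21 main chromosomes of mm10 (GRCm38). They were chosen by name: the purinergic receptors P2rx1, P2ry1 and P2ry12, the surface receptors Mpig6b and Treml1, the signalling protein gene Plek, and the cytoskeletal genes Tubb1, Myh9, Flna and Actn1. The measurement was ATAC-seq, in which a transposase inserts sequencing adapters into open chromatin, in megakaryocyte-erythroid progenitors (MEP), primary progenitors that can become red cells or platelet-forming megakaryocytes. The 2 libraries form 1 group, biological replicates 1 and 2, from male C57BL/6J mice aged 5 to 6 weeks, with 50000 cells per library and no treatment or engineered allele in the labels. The labels list 1 donor entry for both libraries and do not say whether the animals were different, and replicate 1 lists a pair of sequencers.

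Platelets answer to nucleotides released at a wound through P2X and P2Y receptors, and to collagen and thrombin through other receptors. The signal reaches protein kinase C, whose platelet substrate is pleckstrin, and then the actin-myosin and tubulin skeleton that sets platelet shape and drives contraction. Most of these proteins accumulate in megakaryocytes, the cells that a MEP can become after its commitment. MEP are thus an earlier stage than megakaryocytes. ATAC-seq shows which stretches of such genes are open in the progenitor and does not measure their RNA.

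A region is a set of overlapping or touching peaks, and its fold is the authors' fold over local background at its strongest peak. A promoter region overlapped the transcription start site (TSS) ± 1 kb of any protein-coding transcript. A distal region overlapped no such window and lay inside the gene or had its summit within 50 kb of the gene's most upstream TSS. Distances are from the most upstream TSS, negative upstream and positive in the direction of transcription. Each library had a strict list, cut on the irreproducible discovery rate (IDR), and a longer pseudoreplicated list. The libraries together had a conservative list, also labelled IDR-thresholded, and a longer replicated list. Strict refers below to the lists of the single libraries. The strict lists held 26353 regions in replicate 1 and 28142 in replicate 2, and the conservative list held 46200. Folds were not scaled between libraries, so each is read within its own list, and read depth is unknown here.

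The labelled cell type was checked on marker promoters. In both strict lists stood 7 of 10 MEP marker promoters, among them Gata1, Klf1, Tal1 and Nfe2, against 0 of 10 granulocyte and macrophage markers, 1 of 5 microglial markers (Olfml3), 1 of 4 B cell markers (Pax5) and 0 of 4 T cell markers. In both longer lists the counts were 9 of 10, 1 of 10, 1 of 5, 1 of 4 and 1 of 4 in the same order. Elane, Mpo, Csf1r and Cd3e were among the promoters with no region in either longer list.

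The E-box-GATA composite is an element known from sites where TAL1 and GATA factors bind together in erythroid and megakaryocytic cells. Sequences are shown for the 5 distal regions of these genes that hold it within 100 bases of the summit. Over whole regions the count was 7. Each sequence is the summit with 100 bases to either side on the plus strand of the GRCm38 genome of RefSeq. Introns are named by the summit, and the window of Plek at 59.3 kb also touches a Plek exon. Capitals mark every match on either strand to the motifs searched: the GATA motif (spelled AGATAA and also AGATAG and also TGATAA and also TGATAG), the ETS motif (spelled GGAAGT), the RUNX motif (spelled TGTGGT), the AP-1/NF-E2 core (spelled TGANTCA), the CACCC motif (spelled CCACCC), the CArG box of serum response factor, and the composite, CTG followed after 7 to 9 bases by a GATA match. A composite therefore always holds a GATA match as well.
Tubb1 intron at 3.2 kb, chr2:174453755-174453955: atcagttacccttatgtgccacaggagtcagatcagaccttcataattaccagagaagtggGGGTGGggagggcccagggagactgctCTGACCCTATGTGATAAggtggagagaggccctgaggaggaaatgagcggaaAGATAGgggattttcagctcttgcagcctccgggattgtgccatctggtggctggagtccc
Plek intron at 59.3 kb, chr11:16992970-16993170: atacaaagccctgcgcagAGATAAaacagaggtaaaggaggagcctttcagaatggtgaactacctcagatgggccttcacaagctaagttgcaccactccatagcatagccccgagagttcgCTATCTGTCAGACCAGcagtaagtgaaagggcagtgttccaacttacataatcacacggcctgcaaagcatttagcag
Plek intron at 75.2 kb, chr11:16977102-16977302: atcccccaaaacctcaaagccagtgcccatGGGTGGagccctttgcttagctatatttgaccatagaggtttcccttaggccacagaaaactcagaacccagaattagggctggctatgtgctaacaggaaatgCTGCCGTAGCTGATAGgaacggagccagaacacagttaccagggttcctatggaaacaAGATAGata
Myh9 intron at 68.4 kb, chr15:77773666-77773866: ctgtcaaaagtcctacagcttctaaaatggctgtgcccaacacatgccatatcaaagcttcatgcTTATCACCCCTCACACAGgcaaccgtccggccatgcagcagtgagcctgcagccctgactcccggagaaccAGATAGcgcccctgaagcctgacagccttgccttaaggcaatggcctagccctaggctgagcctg
Vwa7 intron at 44.1 kb from Mpig6b, chr17:35021967-35022167: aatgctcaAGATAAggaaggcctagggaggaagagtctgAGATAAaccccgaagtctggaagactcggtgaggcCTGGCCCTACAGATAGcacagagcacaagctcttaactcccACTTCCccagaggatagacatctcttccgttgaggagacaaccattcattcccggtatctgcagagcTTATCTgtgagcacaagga

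Read with CTG first, the composite of the Tubb1 intron was CTGACCCTATGTGATAA on the plus strand, with 8 bases between its parts. The Plek intron at 59.3 kb held CTGGTCTGACAGATAG on the minus strand and the one at 75.2 kb held CTGCCGTAGCTGATAG on the plus strand, each with 7 bases between. The Myh9 intron held CTGTGTGAGGGGTGATAA on the minus strand, with 9 bases between. The Vwa7 intron held CTGGCCCTACAGATAG on the plus strand, with 7 bases between. All 5 differ in the bases between the E-box part and the GATA part. Of these regions, 4 lay inside a member and 4 had a pooled fold above 8.04, the upper quartile of all 32778 distal regions of the conservative list. Among all 4756 distal regions with a composite in the summit window, 32.6% lay above that quartile.

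The members' promoters were counted in each list. P2ry1, Myh9 and Flna, 3 of 10, had a promoter region in both strict lists, against 45.7% of all protein-coding genes. In both longer lists the count was 8 of 10, against 56.5% of all genes, with Mpig6b and Tubb1 missing. In the conservative list it was 7 of 10 (54.5% of all genes), with Treml1 missing too. All 10 of the members had a promoter region in the replicated list, which held one for 62.4% of all genes. These counts take any TSS of a gene, and P2ry12 and Flna counted only through TSS downstream of their most upstream ones. The regions counted for Plek and Mpig6b also overlapped TSS windows of Cnrip1 and Ly6g6c. The members' promoters ranged from strict calls to marginal ones, and the count depended on the list.

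**Figure D1:**
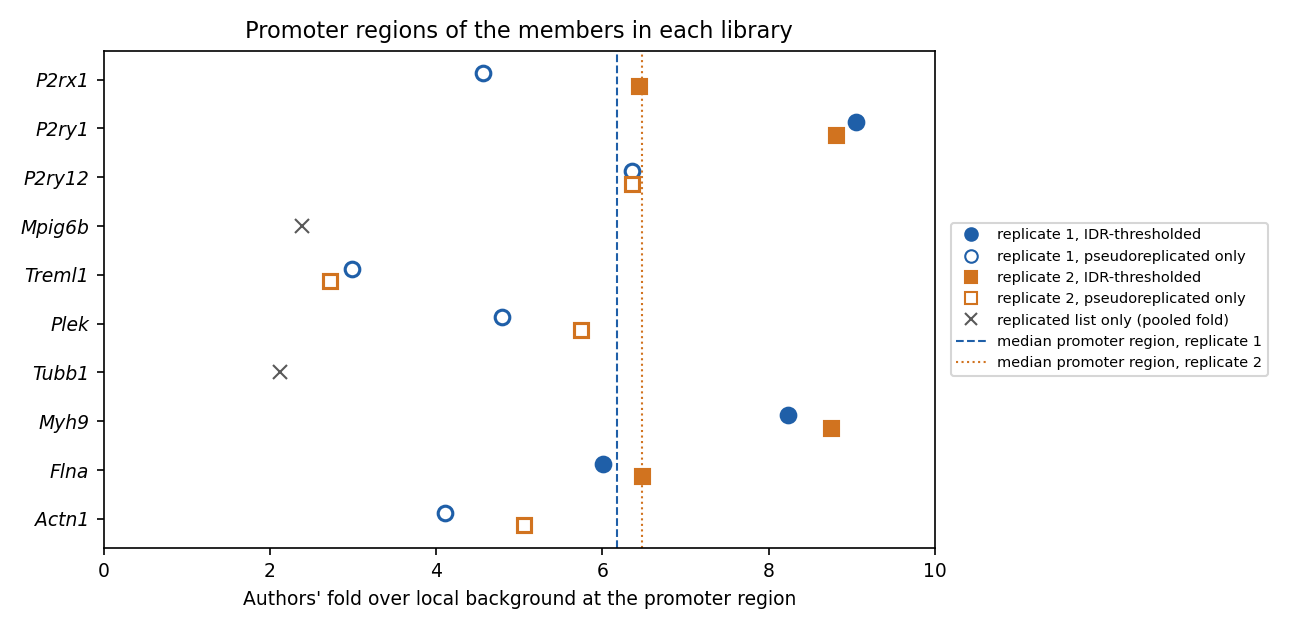
Authors' fold over local background (x axis) at the promoter region of each member (rows) in replicate 1 (circles) and replicate 2 (squares). Filled symbols are in the IDR-thresholded list of that library, open ones only in its pseudoreplicated list, crosses show the pooled fold of promoters in neither library's lists, and vertical lines are the median promoter regions of each library, 6.17 and 6.48; P2ry1 and Myh9 lie above both lines in both libraries.

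Among the receptors, the ADP receptor P2ry1 (chr3:61002795-61008982, plus strand), which couples to Gq and starts the calcium signal and shape change, had the highest promoter fold of all 10. It was 9.05 in replicate 1 and 8.81 in replicate 2, at the 77.7th and 72.2nd percentiles of the promoter regions of those libraries. The summits lay at −63 and −62 bp from a P2ry1 TSS, and the −log10 IDR was 2.88 and 2.90, past the cut of 1.30 in both. The region spanned 1289 bp and held 4 peaks in the conservative list. With the median over its peaks in place of the strongest, the fold was 4.17 in replicate 1 and 4.41 in replicate 2, so the high value belonged to the peak at the TSS.

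P2rx1 (chr11:72999103-73015200, plus strand) encodes an ATP-gated cation channel that lets calcium into platelets. Its promoter fold was 4.56 in replicate 1 and 6.44 in replicate 2, the 31.0th and 49.6th percentiles. The −log10 IDR was 1.04 and 1.61, so the region passed the cut of 1.30 in replicate 2 and missed it in replicate 1. The summit stood at −102 bp in both longer lists. This was the only member whose strict call differed between the libraries. The promoter sequence is shown because its open region covers matches to motifs of MEP factors. In the 250 bases before the P2rx1 start of RefSeq (GRCm38.p6, chr11:72998895-72999144, plus strand), 2 GATA matches and 1 CACCC match are in capitals.
P2rx1 promoter: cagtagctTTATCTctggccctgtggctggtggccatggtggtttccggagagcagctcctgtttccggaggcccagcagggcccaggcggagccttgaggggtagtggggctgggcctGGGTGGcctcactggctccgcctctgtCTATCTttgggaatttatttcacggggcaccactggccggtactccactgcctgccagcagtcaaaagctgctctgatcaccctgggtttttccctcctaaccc

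P2ry12 (chr3:59216272-59262871, minus strand) encodes the Gi-coupled ADP receptor that sustains aggregation, the target of clopidogrel, and is also a known microglial marker. At its most upstream TSS, and at 3 of its 4 other TSS, none of these lists held a region. The single promoter region stood at a TSS 35.3 kb further downstream, with its summit in an intron shared by P2ry12 and the overlapping gene Med12l. Its fold was 6.36 in both libraries, at the 51.9th percentile in replicate 1 and the 48.7th in replicate 2, with a summit at −318 bp from that internal TSS in the conservative list. The −log10 IDR of 0.620 and 0.892 missed the cut of both strict lists, while the conservative list held the region. The region is shown because it was the only one of the conservative list inside P2ry12 or within 50 kb of its most upstream TSS. In its window of the same width, which also touches a Med12l exon (plus strand, chr3:59227799-59227999), 1 GATA and 1 RUNX match are in capitals.
P2ry12 internal region: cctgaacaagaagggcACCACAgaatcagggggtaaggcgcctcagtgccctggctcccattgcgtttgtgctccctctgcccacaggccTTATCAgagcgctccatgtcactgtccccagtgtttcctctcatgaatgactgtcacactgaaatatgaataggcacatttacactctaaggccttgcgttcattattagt

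The surface receptors had weak promoters. Mpig6b (chr17:35062693-35066184, minus strand) encodes G6b-B, an inhibitory receptor of megakaryocytes and platelets, and Treml1 (chr17:48359916-48367176, plus strand) encodes TLT-1, which is stored in platelet granules. No promoter region of Mpig6b stood in either library's lists. In the replicated list its region had a pooled fold of 2.39, with the summit 845 bp downstream of an Mpig6b TSS and only 63 bp from a TSS of the neighbour Ly6g6c. The Treml1 region had a fold of 2.99 in replicate 1 and 2.72 in replicate 2, the 7.20th and 3.01st percentiles, with summits 694 and 717 bp downstream of a Treml1 TSS. Neither region therefore had its summit at the start of the member itself.

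The bases before the Mpig6b start are shown for their composite. Of the 10 members matched in the RefSeq promoter table of 20143 records, Mpig6b was the 1 with a composite in the 250 bases before the start, which 1.78% of all records hold. The same window (GRCm38.p6, chr17:35066185-35066434, minus strand) held 1 RUNX and 1 AP-1/NF-E2 match, all in capitals. The composite, read with CTG first, was CTGGGGGCTCAGATAA. The only Mpig6b promoter region of these lists, chr17:35065206-35065563 in the replicated list, lay downstream of the start and outside this window.
Mpig6b promoter: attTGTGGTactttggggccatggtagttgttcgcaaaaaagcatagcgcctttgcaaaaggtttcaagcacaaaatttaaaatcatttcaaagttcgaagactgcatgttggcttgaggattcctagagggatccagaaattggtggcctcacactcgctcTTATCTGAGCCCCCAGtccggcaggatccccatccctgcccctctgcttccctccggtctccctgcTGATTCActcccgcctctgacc

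The gene of pleckstrin, Plek (chr11:16971206-17052381, minus strand), combined a modest region at its most upstream TSS with strong introns. The fold of that region was 4.795 in replicate 1 and 5.75 in replicate 2, the 34.1st and 42.1st percentiles. Its −log10 IDR was 0.887 and 0.616. That region also overlapped the TSS window of the neighbour Cnrip1, so it cannot be given to Plek alone. The other annotated Plek starts, 43.7 and 49.4 kb downstream, had no region in any of these lists, and the start of Plek in RefSeq lies 43663 bp downstream of the most upstream one.

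Among the cytoskeletal genes the promoters differed widely. Myh9 (chr15:77760587-77842175, minus strand) encodes the heavy chain of non-muscle myosin IIA, the platelet's contractile motor. Its promoter fold was 8.23 in replicate 1 and 8.75 in replicate 2, the 70.6th and 71.6th percentiles, with −log10 IDR of 2.79 and 3.12. Flna (chrX:74223461-74249820, minus strand) encodes filamin A, which ties the von Willebrand factor receptor to actin. Its promoter fold was 6.01 and 6.48, the 48.2nd and 49.97th percentiles, at a cluster of TSS 3.3 kb downstream of the most upstream one. At the most upstream TSS itself none of these lists held a region. Actn1 (chr12:80167547-80260371, minus strand) encodes α-actinin 1, an actin crosslinker. Its promoter fold was 4.11 in replicate 1 and 5.06 in replicate 2, the 24.9th and 34.5th percentiles, and the conservative list split it into 2 regions with pooled folds of 4.40 and 4.38.

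Tubb1 (chr2:174450695-174457882, plus strand) encodes β1-tubulin, the main β-tubulin of the platelet's marginal band. It stood at the other end from Myh9: its promoter was in neither library's lists and had a pooled fold of 2.12 in the replicated list, with the summit at −170 bp. The bases before its start are shown because its promoter had the lowest pooled fold of the members and its intron the highest. In RefSeq's GRCm38.p6 record (chr2:174450345-174450594, plus strand; its start lies 100 bp upstream of the one of GENCODE) only 1 CACCC match is in capitals.
Tubb1 promoter: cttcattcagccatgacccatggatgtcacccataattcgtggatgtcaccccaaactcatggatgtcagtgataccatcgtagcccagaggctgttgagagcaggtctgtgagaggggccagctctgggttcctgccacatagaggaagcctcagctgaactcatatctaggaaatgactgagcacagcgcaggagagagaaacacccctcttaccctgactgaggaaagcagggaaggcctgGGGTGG

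Most of these genes had several open regions away from their start. The conservative list held 36 distal regions around the 10 genes, 15 of them inside a member, and no region counted for more than 1 member. At least 1 was found for 9 of 10 members, against 74.1% of all genes, and the exception was P2ry12. The median was 4 per member and 2 per gene over all genes, with quartiles of 0 and 4. Myh9 had 7, P2rx1 6, Tubb1 5, Mpig6b, Treml1, Plek and Actn1 4 each, and P2ry1 and Flna 1 each. More genes had fewer distal regions than Myh9 (92.0%) and P2rx1 (87.2%) than had fewer than P2ry1 and Flna (25.9%).

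**Figure D2:**
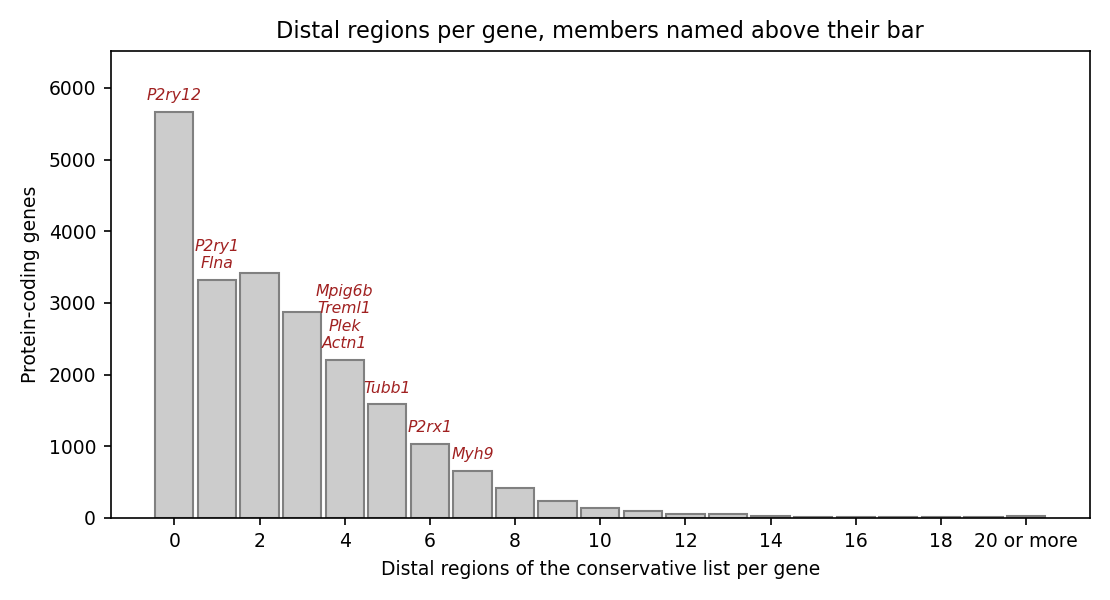
Number of protein-coding genes (y axis) by their number of distal regions of the conservative list (x axis, 20 or more pooled in the last bar), with the members named above their bar. P2ry12 stands at 0, P2ry1 and Flna at 1, and the other 7 members at 4 to 7, above the median of 2.

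The counts depended on what surrounds a gene. Inside the same windows lay 20 promoter regions of other genes, 7 of them around Mpig6b, which has 12 neighbour genes with a TSS within 50 kb, and 0 around P2ry1, P2ry12, Plek, Myh9 and Actn1. When each distal region went to the nearest TSS only, the total was 27, Mpig6b and Treml1 had 0, and P2ry1, which has no neighbour within 50 kb, had 10. Which gene such a region acts on cannot be read from these data.

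**Figure D3:**
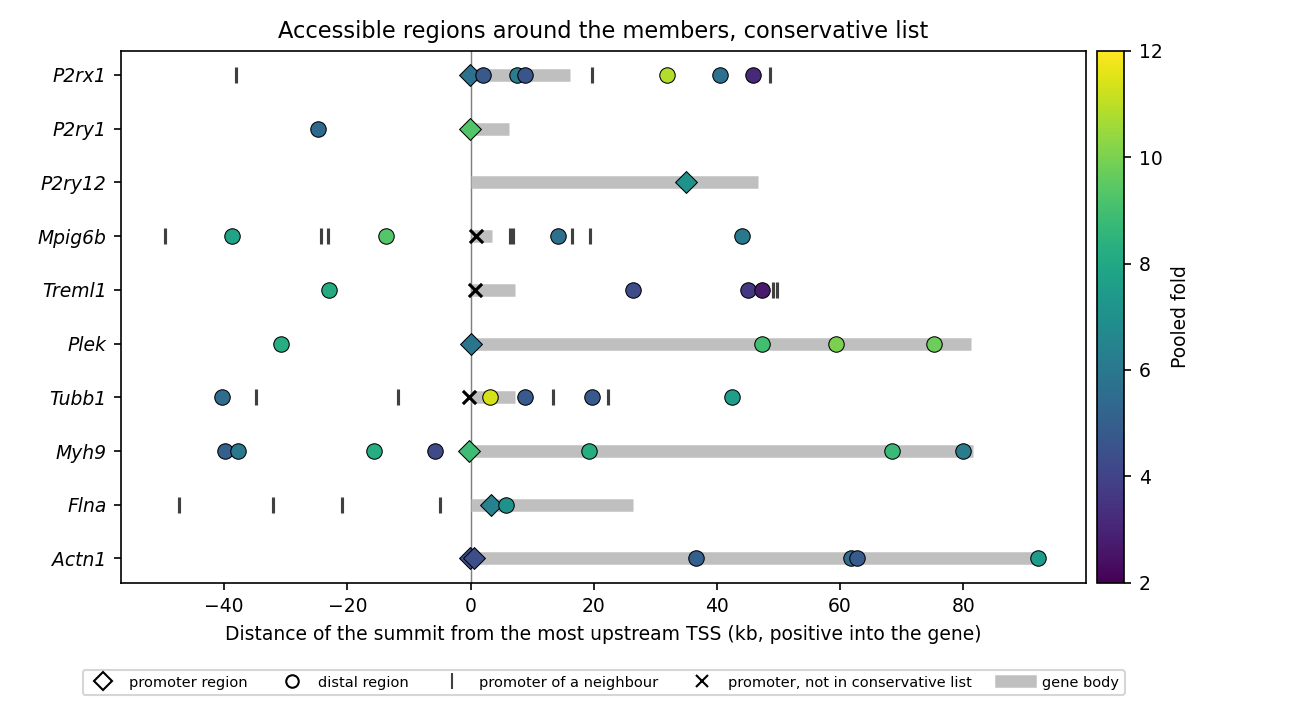
Regions of the conservative list around each member (rows) by distance of the summit from the most upstream TSS in kb (x axis, positive in the direction of transcription), coloured by pooled fold. Diamonds are promoter regions, circles distal regions, ticks promoters of neighbours, crosses promoters outside the conservative list and grey bars gene bodies. P2ry12 has only its internal promoter region, while Plek, Myh9 and Actn1 hold open regions more than 50 kb from the most upstream TSS. For Plek, the start in RefSeq lies 43663 bp downstream of that TSS.

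As a group the members' distal regions were of ordinary strength. Their median pooled fold was 6.02, against 6.36 for all distal regions, and 15 of 36 lay above that median, but 11 lay above the upper quartile of 8.04. In both strict lists stood 15 of 36, against 38.9% of all distal regions, while 7 were in 1 strict list (2 in replicate 1 and 5 in replicate 2) and 33 were in both longer lists, which held 29784 of all 32778 distal regions. The fold was higher in replicate 2 for 26 of these 33, and the same held for 73.4% of all distal regions, so a higher value in replicate 2 was general in these lists. Introns held 21 of the 36, intergenic sequence 14 and a 3′ UTR 1, and introns held 50.9% of all distal regions.

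The strongest distal region of any member lay inside Tubb1, in an intron 3.2 kb downstream of the TSS (chr2:174453378-174454223). Its fold was 10.3 in replicate 1 and 11.5 in replicate 2, the 96.7th and 97.7th percentiles of the distal regions of those libraries, and it was in both strict lists. Its pooled fold of 11.4 stands against 2.12 at the Tubb1 promoter. Its summit window held the composite, another GATA match and 1 CACCC match. The other 4 distal regions of Tubb1 had pooled folds of at most 7.56, and the nearest TSS of each was that of Nelfcd, Atp5e or Prelid3b.

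Plek held the densest run of strong introns. At 47.3 kb (chr11:17004686-17005343) the fold was 9.73 in replicate 1 and 7.87 in replicate 2. At 59.3 kb (chr11:16992778-16993757) it was 9.04 and 9.91, and at 75.2 kb (chr11:16976882-16978103) 8.82 and 9.47. Each was in both strict lists and between the 82.7th and 95.4th percentiles. Each also lay above the fold, in the same library, of the region that Plek shares with Cnrip1. An annotated Plek TSS lay 2123 bp from the summit at 47.3 kb and 9929 bp from the one at 59.3 kb. The introns at 59.3 and 75.2 kb held the composites. The remaining distal region, intergenic at −30.7 kb, had folds of 7.18 and 7.37 and was in the strict list of replicate 2 only.

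Myh9 was open at both its promoter and its introns. Its strongest distal region, at 68.4 kb (chr15:77773192-77774028), had folds of 8.21 in replicate 1 and 8.82 in replicate 2 and held the composite. The intron at 19.3 kb had folds of 7.09 and 8.38. The pooled fold at 68.4 kb, 8.79, differed little from that of the Myh9 promoter, 8.91. The 4 upstream regions of Myh9 had pooled folds between 4.25 and 8.19 and no GATA match in the summit window.

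Flna and Actn1 had open introns of lower fold. The 1 distal region of Flna, in an intron at 5.7 kb (chrX:74243894-74244257), had folds of 6.87 in replicate 1 and 6.76 in replicate 2 and was in both strict lists. Its summit window held 1 ETS, 1 RUNX and 3 CACCC matches. All 4 distal regions of Actn1 lay inside the gene, and none was in both strict lists. The strongest was at 92.1 kb, in the 3′ UTR (chr12:80168109-80168681), with folds of 5.99 and 8.15 and a strict call in replicate 2 only.

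For the receptors the strongest distal regions lay outside the gene. That of P2rx1, at 31.9 kb in an intron of the neighbour Camkk1 (chr11:73030718-73031359), had folds of 9.10 in replicate 1 and 11.6 in replicate 2, the 93.5th and 97.8th percentiles. The 3 regions inside P2rx1 had pooled folds of 4.65 to 6.20, and none of its 6 distal regions held a GATA match in the summit window. That of P2ry1, the only one, lay at −24.8 kb with folds of 4.41 and 5.51 and was in neither strict list.

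The surface receptors resembled Tubb1 in having weak promoters beside stronger distal regions, but theirs lay outside the gene. For Mpig6b the strongest was at −13.8 kb (chr17:35079563-35080640), with folds of 8.44 in replicate 1 and 8.77 in replicate 2. Its summit window held 3 GATA matches, 1 RUNX match and 1 AP-1/NF-E2 match. The TSS nearest to that region was that of Ly6g6e, 2827 bp away. The Vwa7 intron with the composite had folds of 5.13 and 6.48. All 4 distal regions of Mpig6b were in both strict lists. For Treml1 the strongest, at −22.9 kb (chr17:48336910-48337183), had folds of 8.08 and 7.34, a strict call in replicate 1 only, and a Trem2 TSS nearest, 9362 bp away.

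Across the members, the strongest distal region exceeded the promoter in pooled fold for 7 of the 9 that had one, against 56.5% of the 12113 genes with both kinds of region. The exceptions were P2ry1, at 5.37 against 9.29 at its promoter, and Myh9, whose values were close. The gap was widest for Tubb1 and Mpig6b, whose distal maximum of 9.33 stood against 2.39. The promoter values of Plek and Mpig6b are of regions that also overlapped TSS windows of Cnrip1 and Ly6g6c. A maximum over several regions is compared with 1 promoter here, so genes with more distal regions have more chances to exceed it.

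**Figure D4:**
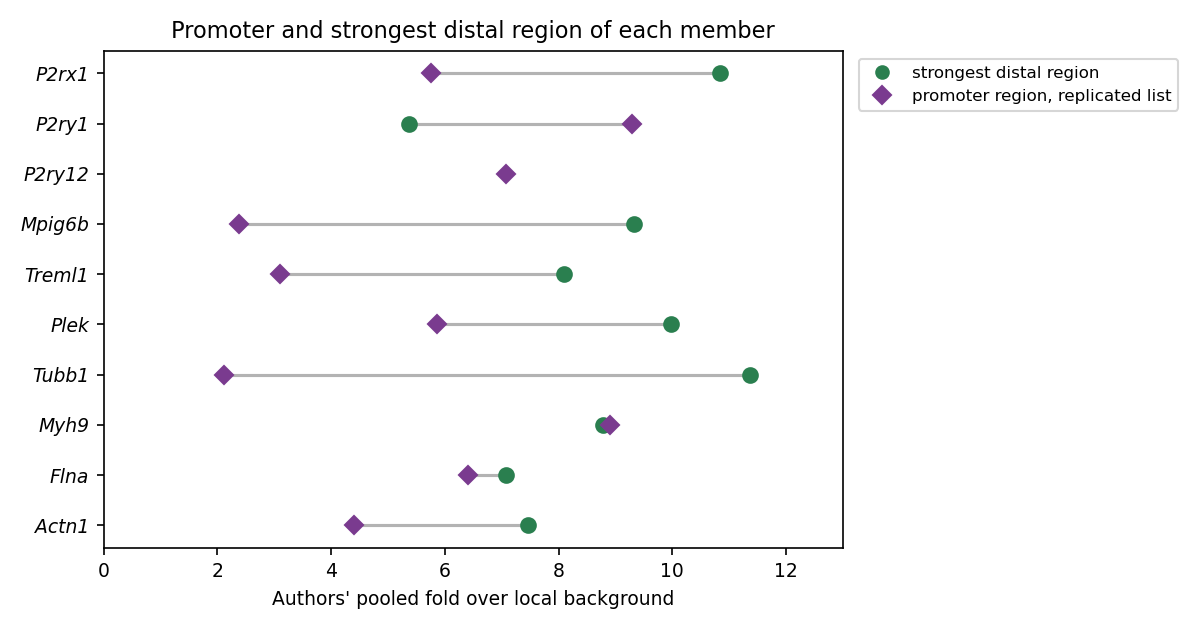
Authors' pooled fold (x axis) of the strongest distal region of the conservative list (green circles) and of the promoter region of the replicated list (purple diamonds) for each member (rows). The distal value is higher for 7 of 9 members, P2ry1 and Myh9 have the higher value at the promoter, and P2ry12 has no distal region.

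The motif counts of the members' distal regions did not stand apart as a group. A GATA match lay in 15 of 36 summit windows, against 53.8% of all distal regions, and a composite in 5 of 36, against 14.5%. ETS matches lay in 6 (14.5% of all), RUNX matches in 7 (21.5%), AP-1/NF-E2 cores in 4 (7.27%) and CACCC matches in 9 (20.2%). The CArG box, the site of serum response factor at many actin cytoskeleton genes, lay in 0 of 36, against 0.747% of all. In the summit windows, GATA matches were spread over Mpig6b, Treml1, Plek and Tubb1 with 3 regions each, Myh9 with 2 and P2ry1 with 1. The distal windows of P2rx1, Flna and Actn1 held none. At the 8 promoter regions of the conservative list, GATA lay in 2 (P2rx1 and P2ry12), against 17.9% of all promoter regions, and CACCC in 4 (P2rx1, P2ry1, Plek and Myh9), against 27.4%. In the 250 bases before the start, GATA lay in 2 of 10 members, against 23.1% of all RefSeq records, and CACCC in 5, against 30.7%. A match describes letters and does not show binding.

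Other genes of the same pathway give the members a setting. Of 69 other platelet receptor, signalling and cytoskeleton genes, 39 had a promoter in both strict lists (45.7% of all genes), and by role these were 2 of 13 receptors, 8 of 18 signalling genes and 28 of 36 cytoskeletal genes, plus 1 of 2 paralogues. The members showed 1 of 3 purinergic receptors, 0 of 2 surface receptors, 0 of 1 signalling genes and 2 of 4 cytoskeletal genes. In the receptor list, the collagen and lipid receptor Cd36 was highest with folds of 6.74 in replicate 1 and 5.38 in replicate 2, followed by Avpr1a (4.65 and 6.27) and the thrombin receptor F2r (5.36 and 5.50). No region of either longer list lay at the adrenergic receptor Adra2a or at Clec1b, the gene of the podoplanin receptor CLEC-2.

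In the signalling list the protein kinase C gene Prkcq was highest, at 8.20 in replicate 1 and 8.15 in replicate 2, then the integrin-activating GTPase Rap1b (6.81 and 7.29) and the Gi subunit Gnai2 (6.52 and 7.36). The tyrosine kinase gene Btk had no region there. In the cytoskeletal list high folds stood at the actin-severing Gsn (9.43 and 11.5) and the microtubule end-binding Mapre1 (10.1 and 10.3), while the integrin-linked parvin Parva, the myosin light chain Myl9 and the light chain kinase Mylk had none. Of the paralogues, Treml2 was in both strict lists with folds of 6.09 and 5.34, above those of Treml1. Plek2 was in neither with 4.35 and 4.67, below those of the region that Plek shares with Cnrip1. In both strict lists the shares of the other genes were 15.4% for receptors, 44.4% for signalling genes and 77.8% for cytoskeletal genes, and the members were too few to compare by role.

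**Figure D5:**
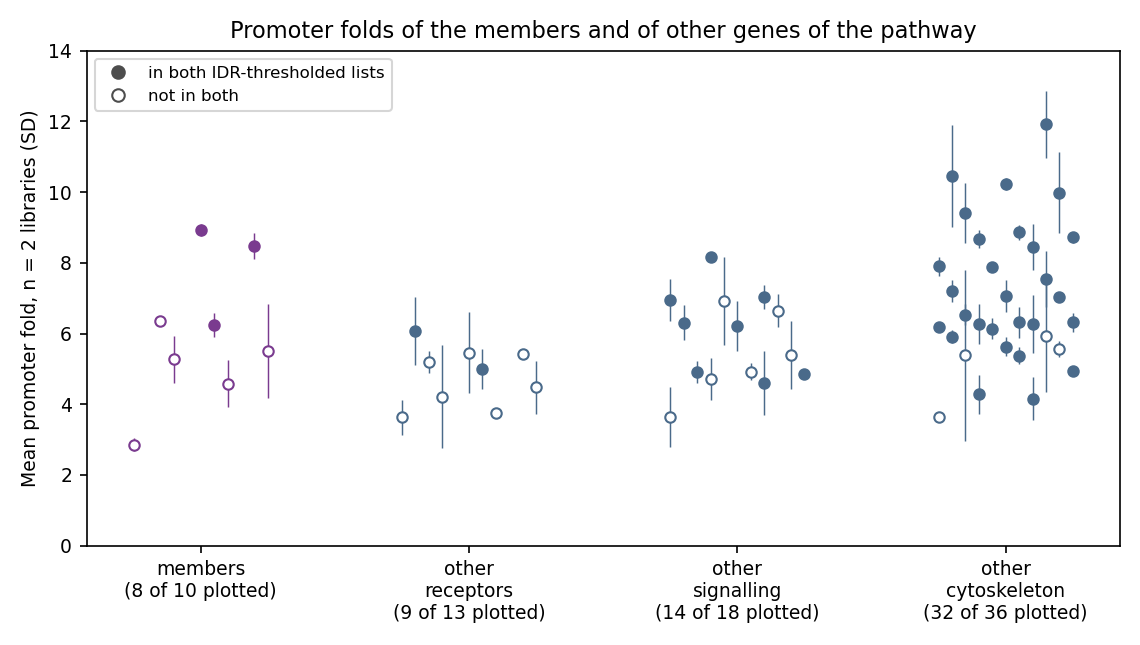
Mean promoter fold over the 2 libraries with its SD (y axis) for the members and for other receptor, signalling and cytoskeleton genes, leaving out genes without a promoter region in both longer lists. The folds were not scaled between libraries, so the SD also includes any general difference between them. Filled points are in both IDR-thresholded lists; P2ry1 (8.93 ± 0.172) and Myh9 (8.49 ± 0.366) lead the members, below Gsn (10.5 ± 1.44) and Mapre1 (10.2 ± 0.162) among the other cytoskeletal genes.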

How the data were processed

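The deposited files are narrowPeak lists, whose assembly is mm10 (GRCm38) per the labels. The ratio used is the deposited fold of each peak, taken from its column and values as an enrichment over local background, with no scaling between libraries. The deposited −log10 p column gives each peak's significance and picked the strongest peak of a region. The deposited score is the −log10 IDR, with a cut of 1.30 (IDR 0.05). Folds are the authors' and only describe, rank or filter peaks within a list. Aligner, peak caller, versions and transposase offset: not given in the sources used here.

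Overlapping or touching peaks were merged, and an overlap of 1 bp counted. Motifs were matched in 100 bp to either side of summits and in 250 bp before RefSeq starts, with Python 3.11.15 and numpy 2.4.6, tested on simulated data. Read depth is unknown, so no interval is given. There is 1 group and no test was run: counts stand beside the share of all 21853 genes. The named genes are all 10 members, per role the 3 highest of 69 other pathway genes and those without a promoter region (1 named gene is not reported here, and 1 symbol with several annotated genes was read at its lowest gene ID). Named regions are the members' promoters, each strongest distal region and distal regions with a composite in the summit window. Other regions named were picked with their values known. The members and lists were chosen with earlier results of these data known. Alternatives changed the list, the window, the TSS, the replicate and the motif window.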

Additional observations from a re-analysis of the deposited data

How the results depend on the processing

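The count of 3 members with a promoter in both libraries was 8 in the pseudoreplicated lists, against 56.5% of all genes, and lay between 3 and 4 when 1 replicate was left out, P2rx1 joining without replicate 1 (47.9% of all genes, and 47.7% without replicate 2). It was 3 with 500 bp windows (44.4% of all genes) or summits inside the window (45.0%), and 2, without Flna, with the upper 50% of regions (27.7%) or the most upstream TSS only (42.8%). The 36 distal regions (3.6 per member, against 2.63 per gene over all genes) became 74 in the replicated list (7.4 against 5.11), 62 with a 100 kb window (6.2 against 4.67), 56 with neighbour promoters counted (5.6 against 3.82), 15 in the upper 50% of regions by fold (1.5 against 1.09), and 18 to 20 in the strict list of 1 library (1.8 against 1.26 and 2 against 1.40), so all genes moved in the same direction. They were 30 in the pooled list (3 per member against 2.37 per gene) and 29 in the 50 kb window only (2.9 against 2.29). That window left Actn1 with 1, Plek with 2 and Myh9 with 5. Their counts thus also rest on regions more than 50 kb from the most upstream TSS. For Plek, the RefSeq start lies 43663 bp downstream of that TSS. By nearest TSS the members' distal regions were 27 (2.7 against 1.5), 10 of them of P2ry1. Over whole regions in place of summit windows, the distal regions with a match were 23 of 36 for GATA (69.4% of all distal regions), 13 for ETS (31.3%), 14 for RUNX (39.6%), 8 for the AP-1/NF-E2 core (16.6%) and 15 for CACCC (38.8%), while the composite gave 7 (19.5%) and the CArG box 0 (2.40%). The median over peaks lowered 6 of 16 promoter folds, 5 of them by more than the SD between the libraries (P2ry1 in both, Myh9 and Actn1 in replicate 1, Flna in replicate 2), and Plek in replicate 1 by less. That SD is taken over 2 folds that were not scaled between libraries. The cause of these shifts was not tested beyond what each setting changes by its construction. The 39 other pathway promoters stayed between 39 and 57 under every alternative tried. No paired analysis was possible because there is 1 group. Depth is unknown and limits what an absent call means.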
